A study of Mus musculus with 6 samples.

Results

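The *Cxcl12* axis was described here through 4 genes of the 24972 in the deposited table, found by their symbols. They were the chemokine *Cxcl12*, its receptors *Cxcr4* and *Ackr3*, and *Esm1*, a gene of endothelial tip cells. All 4 passed the filter on low values. The study compared isolated lung endothelial cells (iLECs) from 3 control mice and 3 *Atp6ap2*iECKO mice at P7, with 1 RNA-Seq library each. Control mice carried the floxed *Atp6ap2* allele (PRR (Atp6ap2)fl/Y in the labels, where PRR is the (pro)renin receptor). *Atp6ap2*iECKO mice carried the same allele together with Cdh5-CreERT2, a Cre recombinase that tamoxifen activates and that is expressed under the *Cdh5* promoter in endothelium. Both groups received tamoxifen (100 μg) on the first 3 days of life, and all were labelled C57BL/6, although the study's methods describe a mixed background with CD1. Only the *Atp6ap2*iECKO group carried Cre, so the presence of Cre and the loss of *Atp6ap2* cannot be told apart here. The cells were captured from digested lung with beads against CD31.

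The values are normalized counts, that is, read counts per gene that the authors had scaled to be comparable between libraries. They summed to between 26359661 and 28725799 in control libraries and between 26243878 and 27221581 in *Atp6ap2*iECKO libraries. The commonest low value of a library, which reflects what 1 read was worth, placed the *Atp6ap2*iECKO libraries at 1.25 to 1.55 times the depth of the shallowest library, and the controls at 1.00 to 1.04 times. The number of reads was not given. The labels give a Y chromosome to all 6 samples, yet *Xist*, the RNA of the inactive X chromosome, had between 37704 and 47487 normalized counts in 4 libraries, replicates 1 and 2 of the controls and replicates 1 and 3 of *Atp6ap2*iECKO. In the remaining libraries, control replicate 3 had 31.7 and *Atp6ap2*iECKO replicate 2 had 19.3. The study's methods state that neonates of both sexes were used, with females carrying the floxed allele on both X chromosomes. The tests of the named axis genes and the counts of calls were therefore also computed with the presence of *Xist* as a covariate and within the 4 libraries that held it, and the ratios between genes within those 4 libraries only. *Pecam1*, which encodes CD31, had 52750 ± 4488 (SD, n = 3) normalized counts in control iLECs and 57016 ± 1283 (SD, n = 3) in those of *Atp6ap2*iECKO mice. *Cdh5* was higher still, at 92569 ± 17220 and 96010 ± 7186 (SD, n = 3 each). Both defining markers of endothelium were thus abundant in both groups.

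CXCL12 is a chemokine that guides migrating cells along a gradient. It is made by stromal cells and by some endothelial cells, arterial ones among them. It signals through CXCR4, a receptor coupled to inhibitory G proteins, which sprouting endothelium uses during vessel growth. ACKR3 binds the same ligand without coupling to G proteins, and takes it up from the surroundings, so that it shapes the gradient. ESM1, or endocan, is a secreted proteoglycan whose transcript marks tip cells, the leading cells of a vascular sprout.

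The 150 bases before the RefSeq start of each gene (GRCm38.p6) are shown as a description of the 4 genes, whose start regions differ in kind. Capitals mark the TATA box (TATAAA), the GC box (GGGCGG), the hypoxia response core (ACGTG), the E box (CACGTG, which contains the previous motif) and the palindromic motif of the factor NRF1, each searched on both strands. The windows lie at chr6:117168385-117168534 on the plus strand for *Cxcl12*, chr1:128592300-128592449 on the minus strand for *Cxcr4*, chr1:90203830-90203979 on the plus strand for *Ackr3* and chr13:113209509-113209658 on the plus strand for *Esm1*.
Cxcl12: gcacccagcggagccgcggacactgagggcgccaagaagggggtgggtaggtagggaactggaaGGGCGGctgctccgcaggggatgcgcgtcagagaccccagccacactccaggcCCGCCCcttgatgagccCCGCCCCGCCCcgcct
Cxcr4: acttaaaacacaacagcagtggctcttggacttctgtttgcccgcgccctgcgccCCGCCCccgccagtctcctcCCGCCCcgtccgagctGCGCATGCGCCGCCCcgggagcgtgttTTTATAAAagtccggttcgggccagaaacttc
Ackr3: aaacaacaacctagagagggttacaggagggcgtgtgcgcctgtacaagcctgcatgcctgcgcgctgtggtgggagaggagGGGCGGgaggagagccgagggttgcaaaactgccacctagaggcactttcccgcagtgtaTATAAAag
Esm1: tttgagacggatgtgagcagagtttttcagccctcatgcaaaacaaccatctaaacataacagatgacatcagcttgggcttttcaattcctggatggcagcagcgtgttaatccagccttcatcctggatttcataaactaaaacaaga

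The *Cxcl12* window had 4 GC boxes, of which the last 2 share a base, and no TATA box, with a GC content of 72.7%. That of *Cxcr4* had 3 GC boxes, 1 NRF1 motif that shares a base with the nearest GC box, and a TATA box read on both strands, first at 32 and then at 30 bases before the start. *Ackr3* had 1 GC box and a TATA box 8 bases before the start. The *Esm1* window, at 42.0% GC, had no match to any of the 5 motifs. Over the 32851 starts in the same table, a TATA box was found in 7.57% of windows, a GC box in 28.6%, the hypoxia core in 11.2%, an E box in 4.30% and the NRF1 motif in 0.645%, with a median GC content of 54.0%. None of the 4 windows held the hypoxia core. These are matches of letters and were chosen after the values of the genes were known. A relation of the start regions to the changes of the genes was not tested.

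The deleted gene was examined first. *Atp6ap2* had 7490, 5815 and 5681 normalized counts in control replicates 1, 2 and 3, and 4220, 2336 and 1982 in those of *Atp6ap2*iECKO. All *Atp6ap2*iECKO libraries were below all controls, and replicate 1 of *Atp6ap2*iECKO kept the most. With limma, the log2 fold change of -1.22 had a standard error of 0.26 and an adjusted *P* value of 0.0306. The call was kept without *Atp6ap2*iECKO replicate 1 (adjusted *P* = 0.00595) and lost when any other library was left out, with adjusted *P* values up to 0.104.

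Among the 4 genes, transcripts of the ligand and of its signalling receptor were lower in *Atp6ap2*iECKO iLECs, by 0.53 and 1.33 on the log2 scale. *Ackr3*, the scavenging receptor, was not detectably different. *Esm1* had the lowest *Atp6ap2*iECKO level in proportion to controls, at 33.8% as computed from its log2 fold change. That order turned without control replicate 1 (log2 fold change -1.02, against -1.19 for *Cxcr4*) and without *Atp6ap2*iECKO replicate 3 (-1.18 against -1.27). *Esm1* varied widely among controls and did not pass. Thus 2 of 4 genes passed the test in the lower direction, where 4.97% of the 14456 genes tested did (719 genes), and 0 of 4 passed in the higher direction, where 3.28% did (474 genes). In either direction the background was 8.25%. Values of the genotypes did not overlap in 3 of the 4 genes, against 29.8% of all genes tested. The 4 genes were picked for their roles with earlier results of these data known, and their shares are given only as a description.

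**Figure D1:**
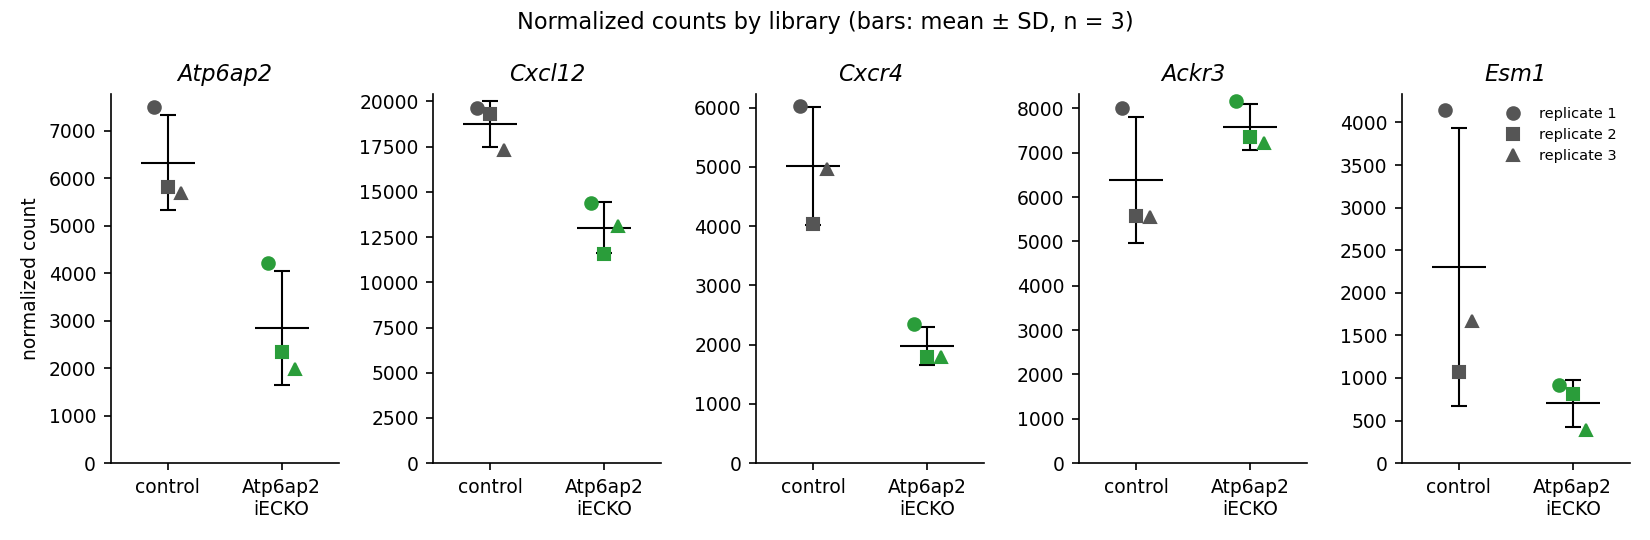
Normalized counts (vertical axes, each from 0) of *Atp6ap2* and the 4 genes of the *Cxcl12* axis in each library, with the mean and SD over 3 libraries of each genotype. The *Atp6ap2*iECKO libraries lie below every control for *Cxcl12*, *Cxcr4* and *Esm1*, while those of *Ackr3* lie between 7224 and 8173, with control replicate 1 at 8012 among them.

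*Cxcl12* is located on chromosome 6 of GRCm38, from 117168535 to 117181367 (ENSMUSG00000061353.11). It had 19649, 19304 and 17313 normalized counts in the controls and 14370, 11570 and 13090 in *Atp6ap2*iECKO replicates 1 to 3. The lowest control was above the highest *Atp6ap2*iECKO library, and the spread within each genotype was small. The means were 18755 ± 1261 and 13010 ± 1402 (SD, n = 3 each). *Cxcl12* differed by -0.53 on the log2 scale (standard error 0.11, 95% interval -0.78 to -0.28, adjusted *P* = 0.0270 from limma), which leaves 69.2% of the control level. An exact permutation test gave a two-sided *P* of 0.1, the smallest that 3 samples against 3 allow. The direction held in all 16 alternatives, but the call did not always hold. It was lost without control replicate 1 (adjusted *P* = 0.0550), 2 (0.0711) or 3 (0.0543) and without *Atp6ap2*iECKO replicate 2 (0.108) or 3 (0.0990), without the mean-variance trend (0.0757), and within the libraries with *Xist* (0.164), where the log2 fold change was -0.51.

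*Cxcr4*, on chromosome 1 from 128588199 to 128592293 (ENSMUSG00000045382.6), showed the firmest difference of the 4. Its normalized counts were 6022, 4032 and 4971 in the controls and 2343, 1793 and 1799 in *Atp6ap2*iECKO replicates 1 to 3. Even the highest *Atp6ap2*iECKO library was well below the lowest control. The means were 5009 ± 995 and 1978 ± 316 (SD, n = 3 each). On the log2 scale *Cxcr4* differed by -1.33 (standard error 0.16, 95% interval -1.71 to -0.96, adjusted *P* = 0.00848 from limma), or 39.7% of the control level (exact permutation test, two-sided *P* = 0.1). *Cxcr4* passed whichever library was left out, with log2 fold changes from -1.48 to -1.19 and adjusted *P* values from 0.00718 to 0.0424. Within the 4 libraries with *Xist* the fall was of like size at -1.26, but the adjusted *P* value was 0.125. The study displays *Cxcr4* among angiogenesis genes that it selected from these libraries, so its call is not independent of that selection.

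*Ackr3* lies on the same chromosome from 90203980 to 90216751 (ENSMUSG00000044337.5). Its normalized counts were 8012, 5582 and 5546 in the controls and 8173, 7344 and 7224 in *Atp6ap2*iECKO replicates 1 to 3. Control replicate 1 reached into the range of the *Atp6ap2*iECKO libraries, and the other controls did not. The log2 difference was 0.27 (standard error 0.15, 95% interval -0.07 to 0.61, adjusted *P* = 0.318 from limma; exact permutation test, two-sided *P* = 0.3). The interval still allows a rise of 0.61. Without control replicate 1 the log2 fold change was 0.44 and *Ackr3* passed (adjusted *P* = 0.0331). No other alternative gave a call.

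*Esm1* is on chromosome 13 from 113209659 to 113218098 (ENSMUSG00000042379.8). The controls had 4151, 1076 and 1669 normalized counts, and *Atp6ap2*iECKO replicates 1 to 3 had 913, 808 and 389. The genotypes did not overlap, but control replicate 1 stood far above the other controls, and control replicate 2 was close to the highest *Atp6ap2*iECKO library. The means were 2299 ± 1632 and 703 ± 277 (SD, n = 3 each). The log2 fold change was -1.57 with a standard error of 0.49 and a 95% interval from -2.71 to -0.42 (adjusted *P* = 0.0982 from limma; exact permutation test, two-sided *P* = 0.1). Without control replicate 1 it was -1.02 (adjusted *P* = 0.167), and no fit that left out a library brought it past the threshold.

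Control replicate 1 held the highest control value of all 4 genes, and *Atp6ap2*iECKO replicate 1 the highest value of its genotype. The latter was also the library with the most residual *Atp6ap2*. Relative to the mean of the log2 values of controls, it stood at -0.57 for *Atp6ap2*, -0.38 for *Cxcl12* and -1.08 for *Cxcr4*. In replicates 2 and 3 these differences were -1.43 and -1.66 for *Atp6ap2*, -0.69 and -0.52 for *Cxcl12*, and -1.46 in each for *Cxcr4*. For *Esm1* they were -1.10, -1.27 and -2.33 in replicates 1, 2 and 3. Those of *Ackr3* were 0.38, 0.22 and 0.20, and so largest in replicate 1. The differences of *Cxcl12*, *Cxcr4* and *Esm1* were smallest in the library that kept the most *Atp6ap2*. That library also had the highest pan-endothelial, fibroblast and mural marker sums of its genotype, given below. A relation to residual *Atp6ap2* or to these sums was not tested over 3 libraries.

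To compare the genes with each other, normalized counts were divided by the length of merged exons, 8.18 kb for *Cxcl12*, 1.81 for *Cxcr4*, 3.35 for *Ackr3* and 2.10 for *Esm1*. In control iLECs, *Cxcr4* had the highest level per kb at 2770 ± 551 (SD, n = 3), followed by *Cxcl12* at 2294 ± 154, *Ackr3* at 1906 ± 422 and *Esm1* at 1096 ± 778. Each neighbouring pair in this order overlapped between libraries. In *Atp6ap2*iECKO iLECs the order was *Ackr3* at 2264 ± 154 (SD, n = 3), *Cxcl12* at 1591 ± 171, *Cxcr4* at 1094 ± 175 and *Esm1* at 335 ± 132. Here no neighbouring pair overlapped. Without division by length, *Cxcr4* was below *Ackr3* in all 6 libraries, so their order depends on the exon lengths, whereas its change between genotypes does not.

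The ratio of the receptors separated the genotypes without overlap. The ratio of *Cxcr4* to *Ackr3*, per kb, was 1.39, 1.34 and 1.66 in control replicates 1 to 3, and 0.531, 0.452 and 0.461 in those of *Atp6ap2*iECKO. A ratio within a library does not depend on how the library was scaled. On the log2 scale the mean ratio was 0.54 ± 0.17 in controls and -1.06 ± 0.13 in the *Atp6ap2*iECKO libraries (SD, n = 3 each), a difference of -1.60, larger than the spread within either genotype. With any library left out it stayed between -1.67 and -1.51. The log2 ratio of the ligand *Cxcl12* to its signalling receptor *Cxcr4* was -0.26 ± 0.30 in controls against 0.55 ± 0.13 (SD, n = 3 each), again without overlap between genotypes. The log2 ratio of *Esm1* to *Cxcr4* was -1.55 ± 0.71 in controls and -1.79 ± 0.56 in the *Atp6ap2*iECKO libraries (SD, n = 3 each) and overlapped. Exact permutation tests of these 3 ratios gave two-sided *P* values of 0.1, 0.1 and 0.7 (0.15, 0.15 and 0.7 with Benjamini-Hochberg adjustment over the 3), so none could pass in this design.

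**Figure D2:**
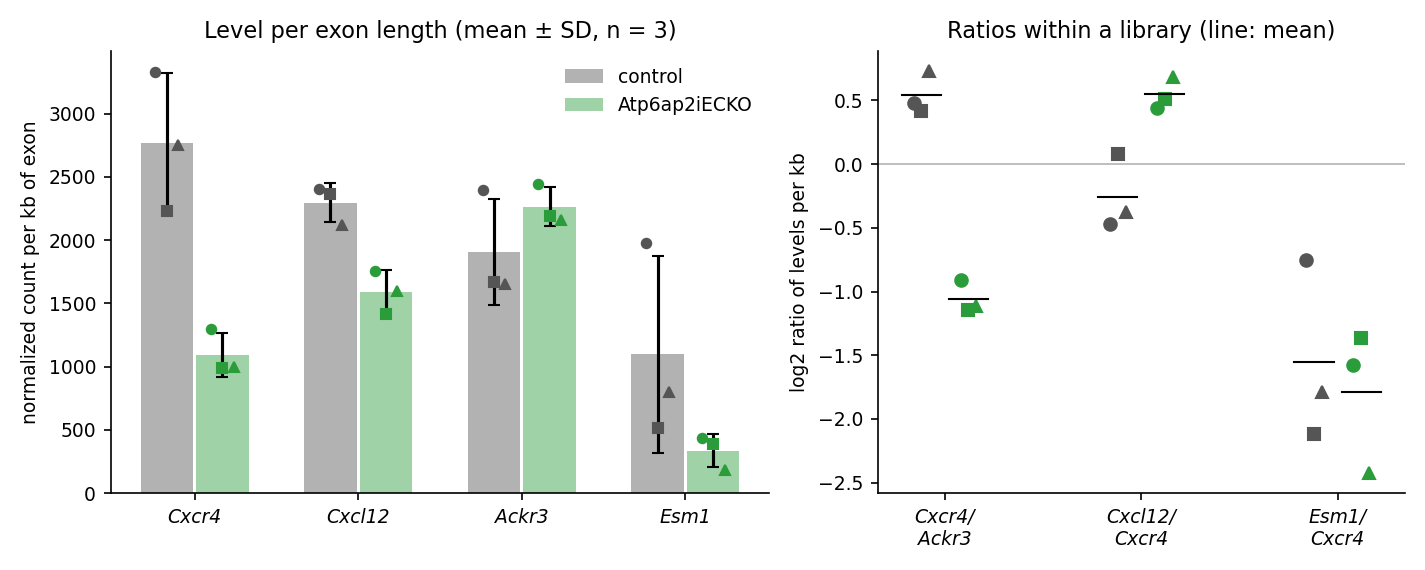
On the left, normalized counts per kb of merged exon (bars, mean with SD over 3 libraries; points, libraries), and on the right, the log2 ratio of levels per kb within each library (lines, means). *Cxcr4* lies above *Ackr3* in each control library and below it in each *Atp6ap2*iECKO library, with mean log2 ratios of 0.54 and -1.06.

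Both receptors and the ligand stood high in their families. Per kb, *Cxcr4* and *Ackr3* ranked first and second of 18 chemokine receptors tested in controls, ahead of *Ackr2* at 517, and second and first in *Atp6ap2*iECKO iLECs. *Cxcl12* ranked second of 23 chemokine ligands in both genotypes, behind *Ccl21a*, a ligand of lymphatic endothelium, at 4638 per kb in controls. *Ccl21a* has near-identical copies, so its value is uncertain.

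The other members of these families did not pass. Of the 38 other chemokine ligands in the table, 22 could be tested, and with limma 0 were called, while 4 had an unadjusted *P* value below 0.05. Of these 4, *Cxcl13* and *Cxcl14* met the filter on low values only through the controls, where they were higher. Over all 14456 genes tested, 8.25% were called and 3453 had an unadjusted *P* value below 0.05. The ligands' median log2 fold change, with *Cxcl13* and *Cxcl14* included, was -0.34, against 0.0049 over all genes tested. The most abundant by normalized counts were *Ccl21a* (log2 fold change 0.37, adjusted *P* = 0.144), the epithelial chemokine *Cxcl15* (-0.22, 0.720) and *Cx3cl1*, a membrane-bound chemokine of endothelium (-0.40, 0.107). *Cxcl14*, named after its values were seen, had 23.5 ± 16.6 normalized counts in controls against 2.25 ± 1.98 in the other genotype (SD, n = 3 each). It was tested only because its controls passed the filter, so its adjusted *P* value of 0.0578 from limma carries no weight here. Of 21 other receptors, 16 could be tested and 0 were called with limma (8.25% over all genes), 1 with an unadjusted *P* value below 0.05. That gene was *Ackr4*, a scavenger of CCL19 and CCL21, named after its values were seen (log2 fold change -0.65, adjusted *P* = 0.0590). The most abundant were *Ackr2*, a scavenger of inflammatory chemokines (0.22, 0.412), *Ccrl2* (-0.36, 0.305) and *Ccr7*, a receptor for CCL21 (-0.11, 0.892). Their median was -0.01.

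A list of other pathway genes held 42 symbols, of which 40 were in the table and 36 could be tested. Of these, 3 were lower and 1 was higher at an adjusted *P* value below 0.05, and the median log2 fold change was 0.01. These are 4 calls among 36 genes, where 8.25% of all genes tested were called. *Adm* encodes adrenomedullin, a peptide that ACKR3 also takes up. It had 540, 743 and 463 normalized counts in controls and 367, 262 and 202 in *Atp6ap2*iECKO replicates 1 to 3, without overlap (log2 fold change -1.08, adjusted *P* = 0.0396). Of 6 listed enzymes that can cleave CXCL12, the matrix metalloproteinases *Mmp2* (-1.07, 0.0215) and *Mmp14* (-0.54, 0.0175) fell. *Mmp9* (0.45, 0.697) and the peptidase *Dpp4*, which trims CXCL12 at its end (-0.30, 0.242), did not pass, and *Ctsg* and *Elane*, listed at 0 in 2 and 3 controls and at up to 9.33 and 3.73 normalized counts in *Atp6ap2*iECKO libraries, were too low to be tested. *Mmp2* is also abundant in fibroblasts, whose markers are given below.

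Among genes that desensitize the receptor, the kinase *Grk6* rose, from 2035 ± 55.2 to 2814 ± 176 normalized counts (SD, n = 3 each, log2 fold change 0.47, adjusted *P* = 0.0163). The values for *Grk2* (0.10, 0.521), *Grk3* (-0.49, 0.293) and *Grk5* (-0.07, 0.75) did not pass. Nor did those of the arrestins *Arrb1* (-0.34, 0.125) and *Arrb2* (0.12, 0.655). All 3 inhibitory G protein subunits lay close to 0, at 0.05 for *Gnai1*, 0.01 for *Gnai2* and -0.0026 for *Gnai3*. The hypoxia factors *Hif1a* (0.13, 0.405) and *Epas1* (-0.21, 0.605) did not pass either. *Cxcl11*, another ligand of ACKR3, was not tested, and was above 0 in 1 library only. The 4 calls were 0 in number without control replicate 3 or *Atp6ap2*iECKO replicate 3, 1 without *Atp6ap2*iECKO replicate 2, and 2 without control replicate 2. With all libraries, 1193 of all genes tested were called. That number fell to 268 and 823 without control replicate 3 or 2, and to 204 and 248 without *Atp6ap2*iECKO replicate 3 or 2.

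The calls among tip cell genes other than *Esm1* went in both directions. Of 20 listed, all were tested, 15 had higher values in *Atp6ap2*iECKO iLECs and 5 lower, with 2 calls in each direction and a median of 0.17 (over all genes tested, 3.28% were called higher and 4.97% lower). *Apln*, the ligand of the apelin receptor, rose from 5810, 5365 and 5015 normalized counts in controls to 7239, 10818 and 12140 in *Atp6ap2*iECKO replicates 1 to 3, so that all *Atp6ap2*iECKO libraries were higher (log2 fold change 0.87, adjusted *P* = 0.0284). The surface sialomucin *Cd34* rose too (0.43, 0.0448). *Dll4*, the Notch ligand that restrains neighbouring cells from becoming tip cells, fell from 19559 ± 458 to 15522 ± 316 (SD, n = 3 each, -0.33, 0.0432), and *Adm*, which stands on this list also, was the other call. *Angpt2* (0.41, 0.282), *Kdr* (0.17, 0.495) and *Pdgfb* (0.11, 0.627) did not pass. Of 13 genes of stalk and phalanx cells, 11 had lower and 2 higher values, with a median of -0.26. *Hey1*, a Notch target (-0.80, adjusted *P* = 0.0142), and *Tek*, the angiopoietin receptor (-0.53, 0.0292), were called, 2 of 13 beside the 4.97% of all genes called lower, and *Tek* is among the genes the study chose to display. The most abundant of this list, *Notch1* (-0.34, 0.151), *Tie1* (-0.20, 0.405) and *Vwf* (0.13, 0.803), did not pass. Tip cell calls numbered 0 without control replicate 2 or 3 or without *Atp6ap2*iECKO replicate 2 or 3, and 2 without control replicate 1. Stalk and phalanx calls numbered 0 without control replicate 3 and 1 without control replicate 2 or *Atp6ap2*iECKO replicate 2 or 3. Calls over all genes tested fell as well, from 1193 with all libraries. They numbered 932, 823 and 268 without control replicate 1, 2 or 3, and 248 and 204 without *Atp6ap2*iECKO replicate 2 or 3.

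**Figure D3:**
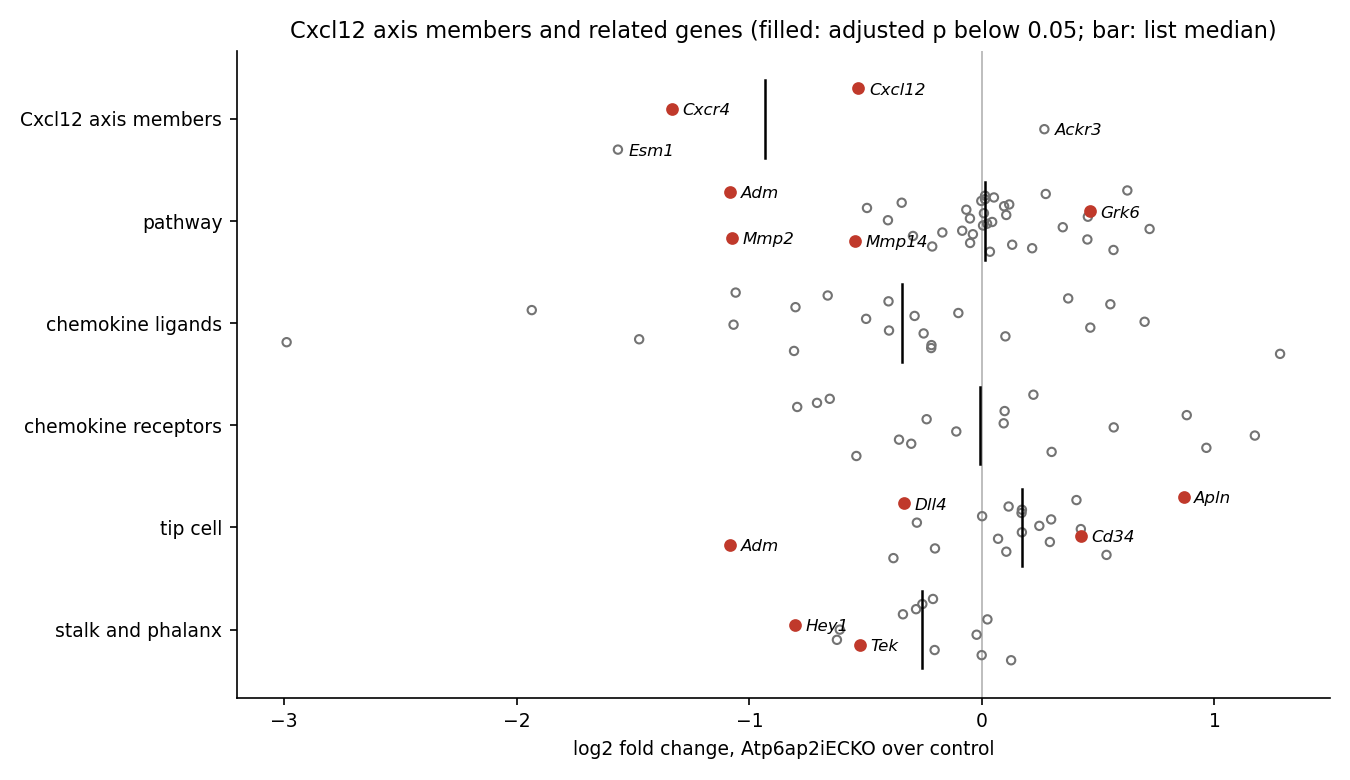
Log2 fold change (horizontal axis, *Atp6ap2*iECKO over control) of every tested gene of the *Cxcl12* axis and of 5 related lists (rows), with filled points for an adjusted *P* value below 0.05 and a bar at the median of each row. In the top row the points of *Cxcr4* at -1.33 and *Cxcl12* at -0.53 are filled, that of *Esm1* at -1.57 is open, and no point is filled among the other chemokine ligands and receptors.

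Transcripts of these genes can come from more than 1 cell type of a bead preparation, and in such bulk samples fewer cells of a type and less RNA per cell cannot be told apart. Summed over 15 pan-endothelial markers, normalized counts were 479076, 407425 and 371970 in controls and 435864, 419504 and 379889 in *Atp6ap2*iECKO replicates 1 to 3. None of the 15 was called, where 8.25% of all genes tested were. The median log2 fold change was 0.07, and 2 genes had an unadjusted *P* value below 0.05 with limma. These were *Ptprb* (-0.68, adjusted *P* = 0.0527) and *Emcn* (0.27, 0.193). The most abundant of the 15 was *Cdh5*. The sums of the genotypes overlapped.

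Some arterial markers fell beside *Cxcl12*. Of 10, 5 were lower at an adjusted *P* value below 0.05, 0 were higher, 5 did not pass, and the median was -0.41 (4.97% of all genes tested were called lower). The summed level was 117520, 113900 and 106533 in controls and 93101, 86524 and 77851 in *Atp6ap2*iECKO replicates 1 to 3. The connexins *Gja4* (-1.14, 0.00731) and *Gja5* (-1.15, 0.0113) and the ephrin *Efnb2* (-0.73, 0.0256), the most abundant of the list, fell, as did *Hey1* and *Dll4*, which stand on other lists above. The arterial factor *Sox17* (-0.03, 0.880) and the co-receptor *Nrp1* (0.00093, 0.997) did not pass, nor did *Bmx* (-0.38, 0.0848), *Sema3g* (-0.44, 0.0589) and *Unc5b* (-0.28, 0.123). No marker of this list was at 0. A lower median was not particular to the arterial list. It was -0.35 over 7 general capillary markers, 6 of them with lower values, and -0.32 over 6 venous markers. The medians of the aerocyte and lymphatic lists were -0.15 and 0.21. The part of arterial cells in the fall of *Cxcl12* was not tested.

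Many markers of fibroblasts, and of mural cells including smooth muscle, fell as well. Of 14 fibroblast markers tested, 13 had lower and 1 higher values in *Atp6ap2*iECKO iLECs, with 11 calls in the lower direction and 0 in the higher, and the median was -1.58 (over all genes tested, 4.97% were called lower and 3.28% higher). Their summed level was 81036, 126910 and 110791 in controls and 40273, 30757 and 27846 in *Atp6ap2*iECKO replicates 1 to 3. *Mfap4* was the most abundant (-1.84, adjusted *P* = 0.00831), and the defining receptor *Pdgfra* fell from 1740 ± 360 to 692 ± 197 (SD, n = 3 each, -1.35, 0.0153). All 14 mural and smooth muscle markers had lower values, 10 of them past the threshold, with a median of -1.48. Their sums were 15062, 21749 and 22597 in controls and 7860, 6477 and 6203 in *Atp6ap2*iECKO replicates 1 to 3. *Pdgfrb*, the most abundant, had a log2 fold change of -1.54 (0.00831), and *Acta2* one of -1.45 (0.0504). The study names *Pdgfrb* and *Notch3*, both on this list, among the decreased genes it chose to display. Their calls are thus not independent of that selection. None of the fibroblast and mural markers was at 0 in all libraries. *Twist2*, a fibroblast marker called lower, met the filter on low values only through the controls. Control replicate 1, the highest control for *Cxcl12*, *Cxcr4* and *Esm1*, was the lowest control for both lists, whereas *Atp6ap2*iECKO replicate 1 was the highest of its genotype for these 3 genes and for both lists. The pan-endothelial sums given above were highest in replicate 1 of each genotype. The part of fibroblasts, mural cells or endothelium in the fall of *Cxcl12* and *Cxcr4* was not tested.

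Leukocytes also express *Cxcr4*. Their 17 markers gave 0 calls with limma, 0 with an unadjusted *P* value below 0.05 and a median of 0.36, with sums of 14091, 7649 and 12833 in controls and 15904, 6318 and 19495 in *Atp6ap2*iECKO replicates 1 to 3. *Lyz2* was the most abundant (-0.05, adjusted *P* = 0.954), and *Ptprc*, which encodes CD45, had 1461 ± 467 and 2021 ± 1075 normalized counts (SD, n = 3 each). In controls these sums had the same order as *Cxcr4* (6022, 4032 and 4971), and in *Atp6ap2*iECKO libraries they did not (2343, 1793 and 1799). The part of leukocytes in the values of *Cxcr4* was not tested. Of 13 epithelial markers, 3 had higher and 10 lower values, with 1 call in the higher direction, *Scgb1a1* of club cells (1.75, 0.0408), and 0 in the lower, a median of -0.14, *Sftpc* as the most abundant (-0.14, 0.857) and *Epcam* at 182 ± 118 and 138 ± 23.5 (SD, n = 3 each). Over all genes tested, 8.25% were called. Among the remaining lists, 1 of 6 venous markers was called, *Nr2f2* (-0.75, 0.0104), and 1 of 7 general capillary markers, *Glp1r* (-0.74, 0.0285). Of 7 lymphatic markers 0 passed (2 with an unadjusted *P* value below 0.05, limma). Of 5 aerocyte markers, which mark the large capillary cells of the alveolus, *Fibin* was called lower (-1.21, 0.0108) and *Apln* higher. The 1 tested mesothelial marker and the 7 tested platelet and erythroid markers gave 0 calls and 0 unadjusted *P* values below 0.05 with limma. The most abundant genes of these lists were *Vwf* for venous, *Cd93* (0.29, 0.337) for general capillary, *Lyve1* (-0.0034, 0.997) for lymphatic, *Apln* for aerocyte, *Msln* (0.10, 0.938) for mesothelial and *Hba-a1* (-0.73, 0.458) for platelet and erythroid markers.

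**Figure D4:**
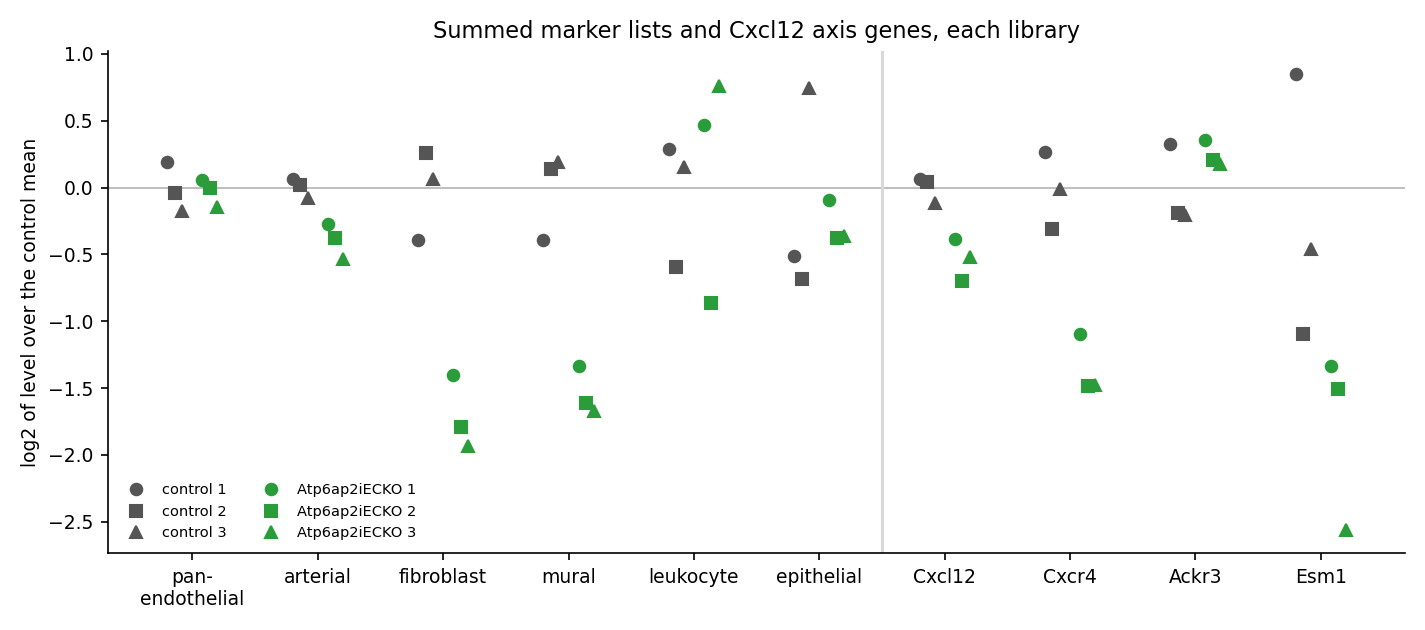
Log2 of the level in each library over the control mean (vertical axis, here the log2 of the arithmetic mean), for summed marker lists at left and the *Cxcl12* axis genes at right, with 1 symbol per replicate number. In *Atp6ap2*iECKO libraries the fibroblast sums lie from -1.93 to -1.40 and the mural sums from -1.67 to -1.33, *Cxcr4* from -1.48 to -1.10 and *Cxcl12* from -0.70 to -0.38, whereas the pan-endothelial sums stay between -0.14 and 0.06.

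For each gene, the transcripts with the most similar pattern were sought by Pearson's r over the 6 libraries among the genes with a mean of at least 100 normalized counts. Those of *Cxcl12* were *Tle3* (r = 0.995), *Rgs2* (0.994) and *Basp1* (0.993), all lower in *Atp6ap2*iECKO iLECs, with log2 fold changes of -0.53, -0.90 and -0.90. Those of *Cxcr4* were *Bnip3l* (0.994), *Fam114a2* (0.994) and *Enpp5* (0.992), with log2 fold changes of -0.45, -0.22 and -0.53. *Ackr3* was followed most closely by *Foxn2* (0.996), *Gnpat* (0.995) and *Zfp646* (0.990), at 0.26, 0.08 and 0.10. *Esm1* was followed by *Tll1* (0.996), *Prkab1* (0.996) and *Pdia5* (0.995), at -0.59, -0.20 and -0.27. Many genes were nearly as similar. Within 0.02 of the third r or above it lay 40 genes for *Cxcl12*, 49 for *Cxcr4*, 19 for *Ackr3* and 27 for *Esm1*. Each of these counts includes the 3 genes named. With 6 libraries in 2 genotypes such r values describe the libraries only, and all of these points share the same libraries and scaling.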

How the data were processed

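The data were 6 RNA-Seq libraries of iLECs, 3 per genotype. The authors aligned the reads to mm10 and quantified genes with BaseSpace tools. The annotation was not given in the sources used here. The count model was not described, though a BaseSpace differential expression tool was named and the name of the deposited values includes deseq. The deposited values are a normalized signal per gene, which the labels call raw counts. They are not whole numbers, the median ratio to the geometric mean was 1.00 in every library, and only 18.5% to 36.4% of low values were whole multiples of the commonest one (within 0.01), so reads were not recovered, depth is known only relatively, and precision is given by SD and standard error over libraries. Nothing in the labels ties replicates to separate litters or days, and *P* values measure the spread between these samples.

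A pseudocount of 1 was added before log2 transformation, and the 14456 genes were kept that had a normalized count of 10 or more in at least 3 libraries. Fold changes are on that scale, which understates changes of low genes. Genotypes were compared with limma 3.58.1 (mean-variance trend, no covariate) in R 4.3.3, with Benjamini-Hochberg adjustment over all genes tested and a threshold of 0.05. The fit was tested on simulated data. Single ratios were compared with exact permutation tests (scipy 1.17.1), and figures were drawn with matplotlib 3.10.9. Exon lengths and coordinates came from GENCODE M21 (GRCm38), which matched 24490 of 24972 symbols (98.1%). Promoter sequences came from RefSeq (GRCm38.p6), where all 4 genes matched. In parentheses after a gene, the first value is its log2 fold change and the second its adjusted *P* value.

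The genes and lists were chosen with earlier results of these data known. Named genes were *Atp6ap2* and the 4 genes, the pathway, chemokine, tip cell and stalk genes past the threshold (with the 3 most abundant of a list where fewer than 3 passed), the most abundant gene of each marker list, 7 defining markers, and the 3 genes most similar to each of the 4. Other genes were named by role or after their values were seen. Alternatives were other scalings, filters, pseudocounts and variance models, a replicate covariate, each library left out, and *Xist*.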

Additional observations from a re-analysis of the deposited data

How the results depend on the processing

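Across the 16 alternatives, log2 fold changes ranged from -0.61 to -0.45 for *Cxcl12*, from -1.48 to -1.19 for *Cxcr4*, from 0.18 to 0.44 for *Ackr3* and from -1.995 to -1.02 for *Esm1*, and leaving out 1 library set each of these ends. For *Atp6ap2* it ran from -1.54 to -0.999. Calls held in 9 of 16 alternatives for *Atp6ap2* and *Cxcl12*, 15 for *Cxcr4*, and appeared in 1 each for *Ackr3* and *Esm1*. Without the mean-variance trend, *Atp6ap2* (-1.22, adjusted *P* = 0.0917) and *Cxcl12* (-0.53, 0.0757) did not pass. That fit called 304 genes (69 higher, 235 lower), 0 of the pathway, tip cell and stalk lists and 18 markers. Within the 4 libraries with *Xist*, 1 gene was called in all, 0 on any list, and the log2 fold changes were -1.19 for *Atp6ap2*, -0.51 for *Cxcl12* and -1.26 for *Cxcr4*. With *Xist* as a covariate, 767 genes were called (248 higher, 519 lower), 1 tip cell gene, 1 stalk gene and 1 other chemokine receptor. With no filter, 2 tip cell genes were called. Library size scaling gave 573 higher and 599 lower genes and moved the median of all genes by 0.04. Leaving out 1 library gave 204 to 989 genes in all, 0 to 5 pathway genes, 0 to 1 other chemokine ligands, 0 to 1 other receptors, 0 to 6 tip cell genes, 0 to 2 stalk genes and 16 to 29 markers (31 with all libraries, 2 higher and 29 lower). With 1 library left out, the difference in log2 ratio ranged from -1.67 to -1.51 for *Cxcr4* to *Ackr3*, from 0.69 to 0.97 for *Cxcl12* to *Cxcr4*, and from -0.52 to 0.17, a change of sign, for *Esm1* to *Cxcr4*. Within the libraries with *Xist* it was -1.46, 0.76 and -0.56. The causes were not tested.

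Replicate numbers are shared by the genotypes in the labels. After subtraction of genotype means, libraries with the same number correlated with r = 0.25, 0.11 and 0.08, and control replicate 3 correlated better with *Atp6ap2*iECKO replicate 2 (0.10), so the numbers were not taken to pair the samples. With a replicate block, 1508 genes were called, among them *Esm1* (-1.57, adjusted *P* = 0.0332), 6 pathway genes, 1 chemokine ligand and 4 stalk genes, and the calls of *Cxcl12*, *Cxcr4* and *Ackr3* stayed as they were.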
